A study of Drosophila melanogaster with 19 samples.

Results

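The genes described here encode the subunits of the proteasome. They were taken as the rows of the count table whose FlyBase symbol begins with Prosalpha, Prosbeta, Rpn or Rpt followed by a digit, which gave 48 of the 17558 gene rows. Of these, 32 are the ubiquitous subunits, which in flies build the proteasome of every tissue. The other 16 are paralogues of them, most of them described from the testis, and carry a T, a T with a digit or an R after the subunit's name. The ubiquitous genes comprise 7 of the alpha ring, 7 of the beta ring, 6 ATPases of the base, 4 scaffolds and ubiquitin receptors of the base, and 8 of the lid.

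The proteasome is the protease that degrades most proteins tagged with ubiquitin. Its barrel-shaped core particle is closed at each end by a ring of alpha subunits, while 3 of the beta subunits in the inner rings carry the protease activities: Prosbeta1 cuts after acidic residues, Prosbeta2 after basic residues and Prosbeta5 after hydrophobic residues. The regulatory particle that sits on the core has a base, whose Rpt ATPases unfold the substrate and whose Rpn scaffolds hold the ubiquitin receptors, and a lid, whose enzyme Rpn11 removes the ubiquitin chain. In neurons the proteasome is known for its part in synapse turnover and in clearing misfolded proteins.

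The data came from Drosophila melanogaster adults aged 3 to 6 days, for which the labels name no allele beyond the labelling transgenes. Nuclei of each of 17 optic lobe neuron types (the T types T1, T2, T3 and T5, the Tm types Tm2, Tm3, Tm5ab, Tm5c and Tm9, the Dm types Dm2, Dm8 and Dm12, the C types C2 and C3, the Lawf types Lawf1 and Lawf2, and Mi1) were marked by a Gal4 line for that type driving UAS-Red Stinger, a red fluorescent nuclear protein. Neurons sorted as a whole, with a title naming Elav, served as the control, and a further line with GFP in T1 together with Tm1 cells gave a mixture. Brains were dissociated, fluorescent cells were sorted by flow cytometry, and cDNA was amplified from picograms of total RNA. Each group rests on the cells that its Gal4 line marks, and the lines themselves are not named in the labels. Each of the 19 groups has 3 libraries, and nothing in the labels says that these came from separate flies, so that the p-values below measure the spread between libraries, which may be technical. In sorted pools of this kind, fewer cells carrying an mRNA and less of it per cell cannot be told apart.

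The 57 libraries held 602175 to 72677109 reads in genes (median 21759658). The 3 T2 libraries held 9444398, 2531086 and 602175 reads, the last 2 of these being the lowest totals of all, and their TMM scaling factors of 0.485 to 0.697 lay below the 0.777 or more of every other library. A count of 3 reads, taken here as the floor of detection, equalled 0.47 CPM (reads per 1000000 reads in genes, after TMM scaling of the library) in the pooled T2 libraries and 0.0307 to 0.068 CPM in every other group. Such floors and intervals cover counting error only. The neuron markers elav, nSyb, Syt1 and Syx1A had reads in every group, with summed levels from 3.24e+03 CPM in C2 to 1.94e+04 CPM in T2. Defining markers of glia, photoreceptors, hemocytes, fat body, muscle and testis had lower sums. The largest of these were those of the glial list, at 1.05e+03 CPM in Lawf1, 681 CPM in Lawf2 and 433 CPM in T2, and in Lawf1 the trehalose transporter Tret1-1 made up 1.01e+03 CPM of it.

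Every ubiquitous subunit but Prosalpha1 was read in each of the 19 groups. Prosalpha1, an alpha ring subunit at 2R:7827303-7828678 (BDGP6), had no read in any of the 57 libraries. Its copy Prosalpha1R lies beside it on the same strand at 2R:7830413-7831771, with 952 bp of exon against 969 bp, and the counter sets aside reads that align to more than 1 place, so that neither gene's level is certain. Whether that is the source of the zero was not tested. The other 31 ubiquitous subunits passed the filter on low counts and are the ones counted in what follows. Overlap with other genes was a limit for Rpn9 and Rpt6, since the library kits do not mark strand: 15.7% of the exon bases of Rpn9 overlap other genes, and 13% of those of Rpt6 overlap CG1801 on the other strand.

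Divided by exon length, the subunits' mean levels over the 16 single types other than T2 ranged from 16.4 CPM per kb for Prosalpha4 to 91.5 CPM per kb for Prosbeta5, with a median of 41.6 CPM per kb. In the alpha ring the highest per length was Prosalpha2 at 59.6 CPM per kb, and in the beta ring the lowest was Prosbeta4 at 33.7 CPM per kb, below the catalytic subunits Prosbeta1 at 47.3 and Prosbeta2 at 43.2 CPM per kb. Among the ATPases, Rpt3 was highest at 57.3 and Rpt2 lowest at 30.2 CPM per kb. In the base, the ubiquitin receptor Rpn10 reached 50.7 CPM per kb while the large scaffolds Rpn1 and Rpn2 stood at 18.7 and 17.9 CPM per kb. In the lid, levels per length ran from 23.3 CPM per kb for Rpn12 to 44.3 CPM per kb for Rpn6, a subunit that braces the lid against the core. The 31 subunits, which stand in fixed numbers in the particle, thus had read levels per length that differed several-fold. Not divided by length, the long scaffolds Rpn1 and Rpn2 had medians of 51.7 and 63.4 CPM over the 17 types. Whether reads in these amplified libraries scale with exon length was not tested.

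Across the 17 single types all 31 subunits varied in level (edgeR's quasi-likelihood test, Benjamini-Hochberg adjusted p of 0.00661 or less), as did 90.9% of all genes tested. Over all 17 types the standard deviation of log2(CPM + 1) had a median of 1.02 for the subunits against 0.668 for all genes tested. Without T2 the order was the reverse: the standard deviation over 16 types ran from 0.248 for Rpn6 to 0.499 for Prosalpha6, with a median of 0.331 against 0.526 for all genes tested. The ratio of the highest to the lowest type mean was 1.76 for the ATPase Rpt4 at one end and 4.24 for the beta ring subunit Prosbeta3 at the other. The mean coefficient of variation between the libraries of a group was 8.95% for Rpt3 and 21.3% for Rpn12, the extremes of the set. As a description over those 16 types, the correlation of each subunit's log2 level with the mean of the other subunits was positive for 29 of the 31, with a median of 0.648. The points share libraries and their depth. Prosalpha6 followed the set most closely (0.827), while the scaffold Rpn2 ran against it (-0.394) and Rpn6 did not follow it (-0.00889).

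**Figure D1:**
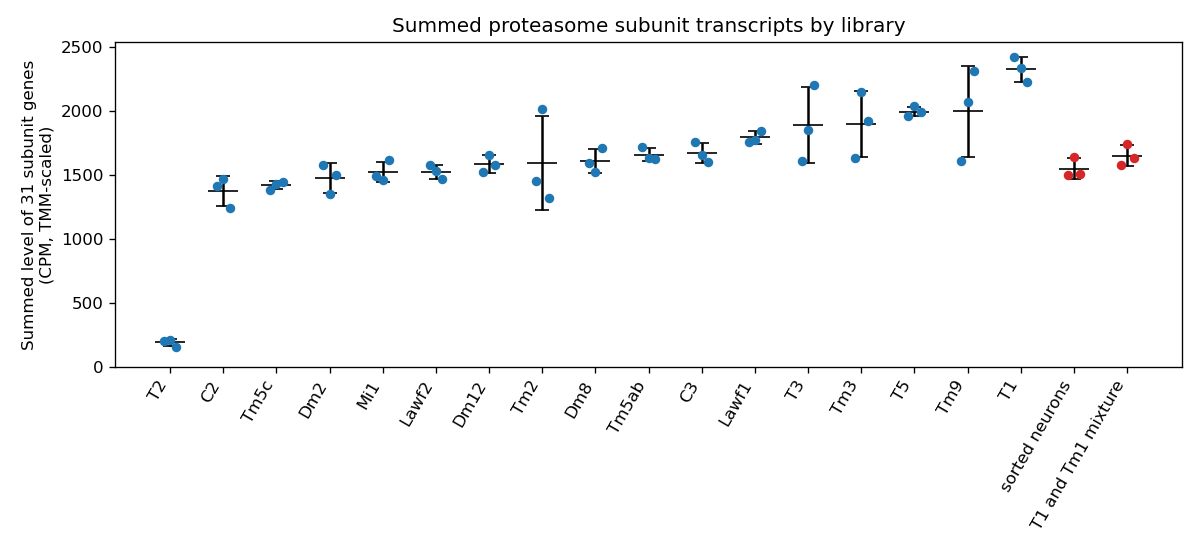
Summed level of the 31 ubiquitous subunits, in CPM, in each group; points are libraries, bars the mean ± SD of 3 libraries, the 17 single types are ordered by their mean, and the control neurons and the mixture line are in red. T2 stands apart at 189.5 CPM, and the other types run from 1374 CPM in C2 to 2326 CPM in T1.

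The plot of the summed level by group gives the order of the types. The 31 subunits together reached 189.5 ± 28.64 CPM (SD, n = 3) in T2, where the libraries held 199.3, 211.9 and 157.2 CPM. The next types were C2 at 1374 ± 120.4 CPM, Tm5c at 1420 ± 31.88 CPM and Dm2 at 1476 ± 114.7 CPM, whose libraries overlap. At the upper end, T1 had 2420, 2333 and 2224 CPM (mean 2326 ± 97.98), above T5 at 1996 ± 37.74 CPM and Tm9 at 1999 ± 355.7 CPM. The Tm9 libraries spread from 1612 to 2313 CPM, so Tm9 was not separate from T1, T5, Tm3 or T3. Neighbours in this order mostly differed by less than the spread between their libraries. Sorted neurons, at 1549 ± 80.74 CPM, and the mixture, at 1649 ± 82.48 CPM, lay within the range of the single types.

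**Figure D2:**
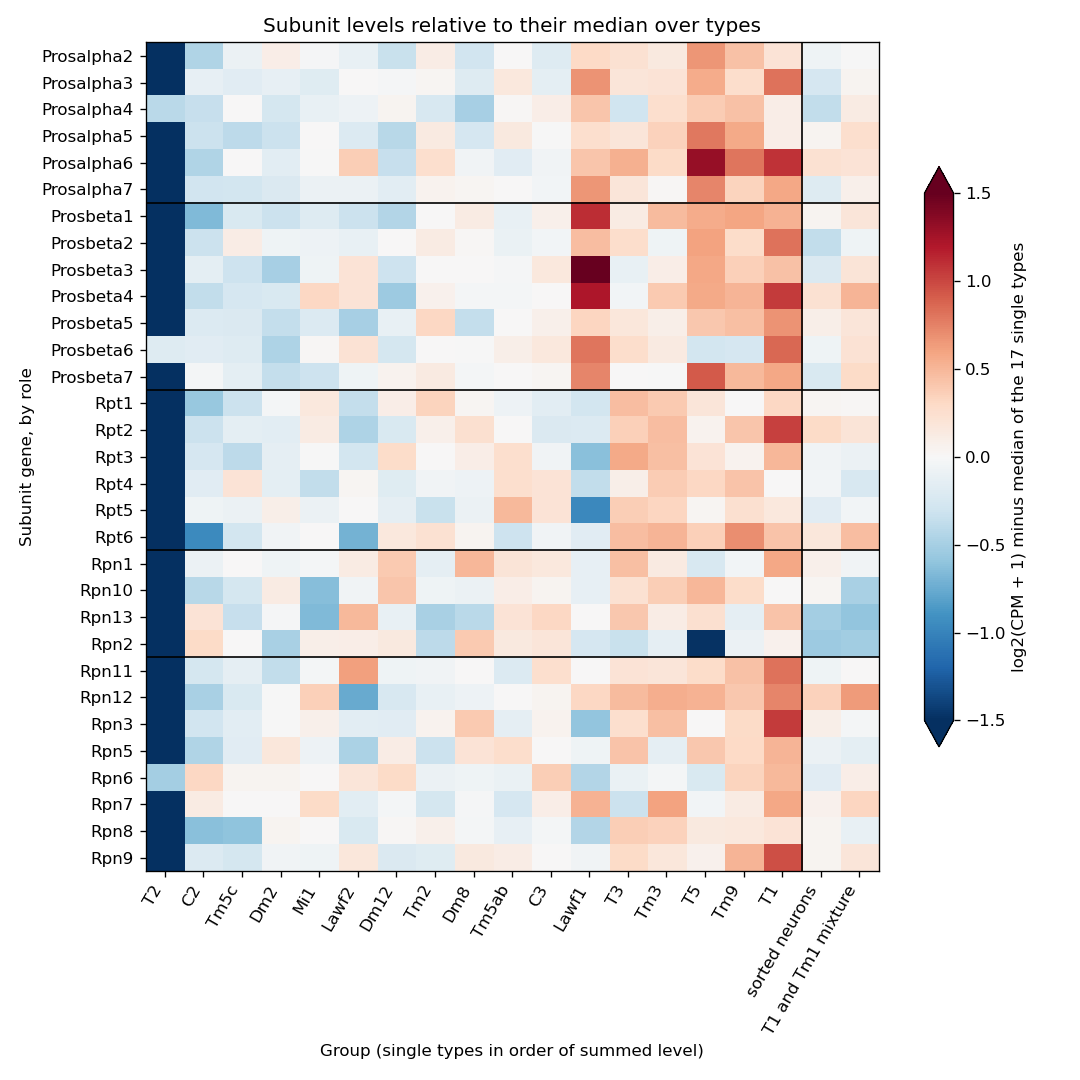
Level of each of the 31 ubiquitous subunits (rows, by role) in the 19 groups (columns), as log2(CPM + 1) minus the median of the 17 single types, with the colour held at 1.5 in either direction. The T2 column is at the lower limit for nearly all rows, the T1 column is above the median in most, and in the Lawf1 column the alpha and beta rings are high while the ATPases are low.

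T2 neurons carried far less subunit mRNA than any other type. Against the mean of the other 16 types, 29 of the 31 subunits were lower and none higher, with a median log2 fold change of -4.18; of all genes tested, 24.1% were lower, 21.5% were higher and their median was -1.24. The lower subunits covered every role, with 5 of 6 tested in the alpha ring, 6 of 7 in the beta ring, all 6 ATPases, all 4 base scaffolds and receptors and all 8 in the lid. For 28 subunits every T2 library lay below all 48 libraries of the other types, which held for 18.2% of all genes.

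Among the catalytic subunits, Prosbeta5 had 6.993, 10.09 and 7.145 CPM in the T2 libraries and a mean of 104 CPM in the other types (log2 fold change -3.71 ± 0.40 SE, adjusted p = 1.1e-11, edgeR's quasi-likelihood test). Prosbeta1 had 1.967, 2.883 and 0 CPM, and Prosbeta2 6.119, 2.883 and 2.382 CPM. Each of these values was below the lowest library of any other type. The ATPase Rpt4 had 3.715, 1.441 and 0 CPM (log2 fold change -4.62) and Rpt3 had 6.119, 5.045 and 2.382 CPM (-3.95). The ubiquitin receptor Rpn13 was read in 1 T2 library alone, at 2.622 CPM, against a mean of 58.1 CPM elsewhere. In the alpha ring, Prosalpha7 had 1.53 CPM in the first T2 library and no read in the others, against 40.8 CPM elsewhere. The scaffold Rpn2 had 1.311, 0 and 2.382 CPM in T2 and a mean of 60.9 CPM in the other types (log2 fold change -5.74), and the lid subunit Rpn3 had 1.093, 0.7207 and 0 CPM against 53 CPM (-5.76). The furthest from the other types was Rpn12, a small lid subunit, with a single read in the 3 T2 libraries together. Its pooled level in T2 was 0.684% of that in the other types, with a 95% exact Poisson interval of 0.0173% to 3.81%.

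**Figure D3:**
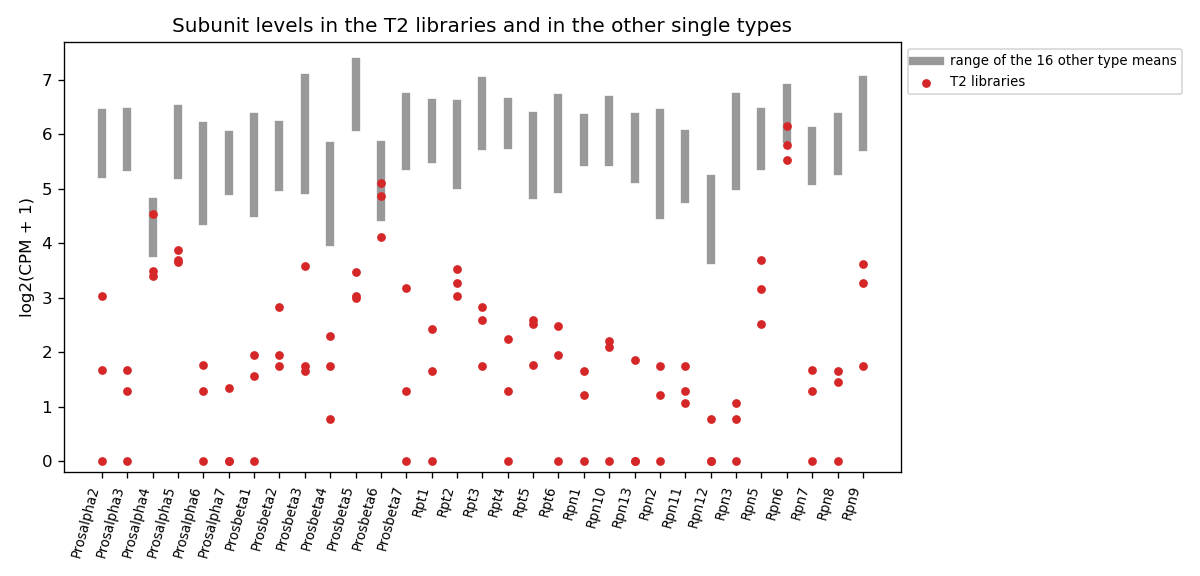
Level of each of the 31 ubiquitous subunits in the 3 T2 libraries (red points) beside the range of the means of the other 16 types (grey bars), as log2(CPM + 1). Prosalpha4, Prosbeta6 and Rpn6 have red points within or at the edge of the grey range, and those of the other 28 subunits lie below it.

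In T2 3 subunits lay nearer to their level in the other types. Prosalpha4 had 10.27, 22.34 and 9.527 CPM (log2 fold change -0.52, adjusted p = 0.397) and Prosbeta6 had 16.39, 28.11 and 33.34 CPM (-0.57, adjusted p = 0.228), and neither passed the test. Rpn6 had 45.02, 70.62 and 54.78 CPM and was lower by a small amount (-0.67, adjusted p = 0.0209). Its mean of 56.8 CPM in T2 stood beside 0.604, 1.21 and 1.3 CPM for its lid partners Rpn3, Rpn7 and Rpn8.

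The T2 libraries were shallow: 912, 294 and 66 reads fell on the 31 subunits, and 1, 4 and 15 of them had no read. In the 48 libraries of the other types no subunit had fewer than 109 reads. The summed CPM was 199.3 in the deepest T2 library, 211.9 in the next and 157.2 in the shallowest. Short genes were low in T2 in general, with a median log2 fold change of -2.07, -2.11, -1.85, -0.90 and 0.63 over 5 sets of genes of rising exon length, and no subunit was in the longest set. With that length trend removed, 28 subunits were still lower, and the median of the 31 was -3.66 against -1.29 for all genes. Rpn6 then no longer passed (adjusted p = 0.39, edgeR's quasi-likelihood test). For counts made with the length trend removed, here and below, the share of all genes called is not given. The part that depth and amplification had in the result was not tested.

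Other complexes measured beside the proteasome were also low in T2. Of the COP9 signalosome, which resembles the lid and removes Nedd8 from cullins, 7 of 8 genes were lower and 1 was higher, CSN8, at 41.5 ± 37.6 CPM. Its subunit CSN6 averaged 0.939 CPM in T2 and 67.1 CPM in T5, the highest type. Of the CCT chaperonin, which folds actin and tubulin, 6 of 7 matched genes were lower, with CCT6 at 0.772 CPM in T2 and 104 CPM in Lawf2. All 3 matched genes of the p97 unfoldase system, which extracts ubiquitinated proteins, were lower: p47 averaged 1.17 CPM, Npl4 2.04 CPM and Ufd1 3.88 CPM. Of 15 genes for ubiquitin and its conjugation, 6 were lower and 4 higher. The lower ones included the ubiquitin precursors Ubi-p63E (11.8 CPM) and RpL40 (20.6 CPM), and the higher ones included the conjugating enzymes Ubc6 at 1.41e+03 ± 450 CPM (log2 fold change 2.34), eff at 821 ± 180 CPM (0.91) and ben at 333 CPM (1.13). Ubc6 and eff were at their highest mean in T2. Of 8 proteasome partners, 3 were lower and 2 higher, the latter being the ubiquitin shuttle Rad23 at 280 ± 92.4 CPM (log2 fold change 0.81) and the activator cap REG at 89.6 CPM (0.51). Of the neuron markers 3 of 4 were higher in T2. Of the glia markers 2 of 7 were higher, with a sum of 314 to 501 CPM, of which Tret1-1 averaged 361 CPM and repo 10.4 CPM. Of 4 fat body and yolk markers tested 2 were higher, with a sum of 21.4 to 28 CPM, led by the lipoprotein gene apolpp at 21.1 ± 1.48 CPM against a median of 0.87 CPM over the types. The part of either list in the subunits' levels was not tested.

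T1 had the highest summed level. Against the mean of the other 16 types, 27 of 31 subunits were higher and none lower, where 23.6% of all genes were higher and 17.1% lower. The median log2 fold change was 0.74 for the subunits and -0.14 for all genes. Because T2 pulls down the mean of the other types, each comparison was also made without it: 24 subunits were then higher and none lower in T1, against 23% and 19.1% of all genes, with a median of 0.53. By role, 4 of 6 in the alpha ring, all 7 in the beta ring, 5 of 6 ATPases, 3 of 4 in the base's scaffolds and receptors, and all 8 in the lid were higher with T2 included. Those that did not pass were Prosalpha4, Prosalpha5, Rpn10 and Rpt4.

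The lid subunit Rpn3 had 108.8, 108.1 and 89.34 CPM in T1 against a mean of 46.6 CPM in the other types (log2 fold change 1.42 ± 0.14 SE, adjusted p = 2.72e-12, edgeR's quasi-likelihood test). Rpn9, another lid subunit, had 133.5, 128.3 and 116.7 CPM (1.12, adjusted p = 5.53e-12), and the ATPase Rpt2 had 93.86, 91.91 and 95.3 CPM (1.19, adjusted p = 8.19e-11). For these 3 genes every T1 library was above all libraries of the other single types, which held for 3.23% of all genes. The catalytic subunits rose as well, Prosbeta5 to 171.2, 155.7 and 150.4 CPM (0.92, adjusted p = 2.27e-07), Prosbeta2 to 65.38, 83.07 and 65.58 CPM (0.95, adjusted p = 4.84e-07) and Prosbeta1 to 52.27, 53.53 and 50.74 CPM (0.74, adjusted p = 0.00058). Their T1 libraries overlapped with the highest libraries of other types. In 12 of the 31 subunits T1 had the highest mean of the 17 types.

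Genes of other lists differed in T1 as well. Of 8 heat shock genes, 5 were higher and 1 lower: the small heat shock proteins Hsp23, Hsp26 and Hsp27 averaged 255 ± 136, 306 ± 204 and 191 ± 105 CPM, with wide spread between libraries, and Hsp70Bb was lower at 6.78 CPM. Of 8 proteasome partners 5 were higher, among them Uch-L5, a deubiquitinase of the regulatory particle, at 54.3 ± 8.29 CPM. Of 15 genes for ubiquitin and its conjugation, 4 were higher and 4 lower. Among the ubiquitin precursors, RpL40, which encodes ubiquitin fused to a ribosomal protein, was highest in T1 at 727 ± 56.6 CPM. RpS27A averaged 95.2 CPM in T1 against a median of 67.6 CPM over the types. Ubi-p5E and Ubi-p63E averaged 80.9 and 105 CPM in T1, below their medians of 169 and 271 CPM. Of 7 glia markers 3 were higher, with the list's sum at 157 to 224 CPM in the T1 libraries, and 2 of 4 neuron markers were lower. The part of these differences in the subunits' levels was not tested.

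T5 had the highest mean of the 17 types for 6 subunits. In it 22 of 31 were higher and 1 lower, where 26.2% of all genes were higher and 15.1% lower, and without T2 the counts were 17 and 1, against 26.9% and 17.7%. In the core particle 12 of 13 subunits were higher either way, and in the regulatory particle 10 of 18 were higher with T2 and 5 without it. With the length trend removed, 9 of 13 core and 9 of 18 regulatory subunits were higher, and 1 of each was lower. The medians were then 0.42 and 0.28, beside 0.03 for all genes. Prosalpha6 had 68.57, 70.69 and 71.66 CPM in T5 against a mean of 30.9 CPM elsewhere (log2 fold change 1.41 ± 0.14 SE, adjusted p = 6.57e-12, edgeR's quasi-likelihood test). All 3 libraries lay above those of every other type, as in 1.04% of all genes. The scaffold Rpn2 moved the other way, at 26.41, 17.15 and 22.59 CPM against 59.6 CPM (-1.14, adjusted p = 0.000874; -1.47 without T2). Apart from T2, no library of another type had so little Rpn2, which held for 1.31% of all genes. Across the 31 subunits the fold change in T5 fell with exon length (r = -0.69 with log2 length, a description over 31 genes), where the same value over all genes was -0.08. Within the core alone r was 0.167, and within the regulatory particle -0.819. Over the 5 sets of rising exon length the median of all genes in T5 was 0.47, 0.44, 0.06, -0.35 and -0.41, and that of the subunits 0.70, 0.75, 0.42 and -0.60 in the first 4, which hold 2, 16, 11 and 2 of them. Beside the subunits in T5, 3 of 4 fat body and yolk markers (sum 6.09 to 9.36 CPM), 2 of 7 glia markers (sum 183 to 285 CPM) and 2 of 4 neuron markers were higher, and 4 of 8 heat shock genes were lower. Their part in the subunits' levels was not tested.

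In Tm9 22 subunits were higher and none lower, against 20.9% and 6.41% of all genes. The count was 8 without T2, against 17.7% higher and 9.51% lower, and 9 without Tm9 library 3. Its leading subunit was the ATPase Rpt6 at 84.08, 96.78 and 120.5 CPM (log2 fold change 0.99, 0.69 without T2), and Prosalpha6 followed at 34.14, 56.21 and 57.63 CPM (0.87). In Tm3 14 were higher and none lower, against 18.9% and 6.69% of all genes, and 11 were higher without T2, against 16.9% higher and 6% lower. All 6 ATPases were among them under both comparisons, and none of the 13 core subunits was among the 11. Rpn12 in Tm3 had 24.56, 40 and 27.92 CPM (0.94; 0.54 without T2). In T3 16 were higher and none lower, against 19.9% and 9.02% of all genes. Without T2 7 were higher and 1 lower, against 17.5% and 10.6%, and without T3 library 3 the count was 8. Rpt3 reached 106, 129.2 and 140.2 CPM there (0.81; 0.56 without T2), and 4 ATPases and no core subunit were higher without T2. Rpn12 in T3, at 20.39, 27.12 and 40.39 CPM, was called with T2 (0.87) and not without it (0.43, adjusted p = 0.0801, edgeR). Without T2 the median log2 fold change of the ATPases was 0.46 in Tm3 and 0.43 in T3, against 0.12 and 0.09 for the core.

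Lawf1, a neuron type that feeds back from the medulla to the lamina, had high core subunits beside regulatory subunits that were near or below the average. Of the 13 core subunits tested 12 were higher and none lower, whereas of the 18 regulatory subunits 2 were higher and 3 lower; among all genes 34.4% were higher and 16.3% lower. Without T2 the counts were 7 higher and 0 lower in the core, and 1 higher and 8 lower in the regulatory particle, against 31.2% and 21.9% of all genes. The median log2 fold change was 0.85 in the core and 0.03 in the regulatory particle, or 0.49 and -0.34 without T2. The beta ring carried the rise, with all 7 subunits higher (5 without T2), and the ATPases the fall, with 2 lower (5 without T2).

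Prosbeta3, a beta subunit without protease activity, had 133.7, 116.1 and 139.4 CPM in Lawf1 against a mean of 42.8 CPM in the other types (log2 fold change 1.70 ± 0.14 SE, adjusted p = 2.56e-15, edgeR's quasi-likelihood test). Every Lawf1 library was above all others, as for 6.19% of all genes. The catalytic Prosbeta1 had 71.33, 83.62 and 81.31 CPM (1.37, adjusted p = 1.26e-09) and Prosbeta4 had 56.41, 50.23 and 55.66 CPM (1.32, adjusted p = 4.2e-09), each at its highest mean in Lawf1. On the other side, the ATPase Rpt5 had 24.01, 31.58 and 30.44 CPM against 57.1 CPM (-0.80, adjusted p = 2.78e-05), and Rpt3 had 58.2, 45.06 and 59.82 CPM against 85.9 CPM (-0.47, adjusted p = 0.000988). Apart from T2, no library of another type was as low in these ATPases, which held for 2.61% of all genes.

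**Figure D4:**
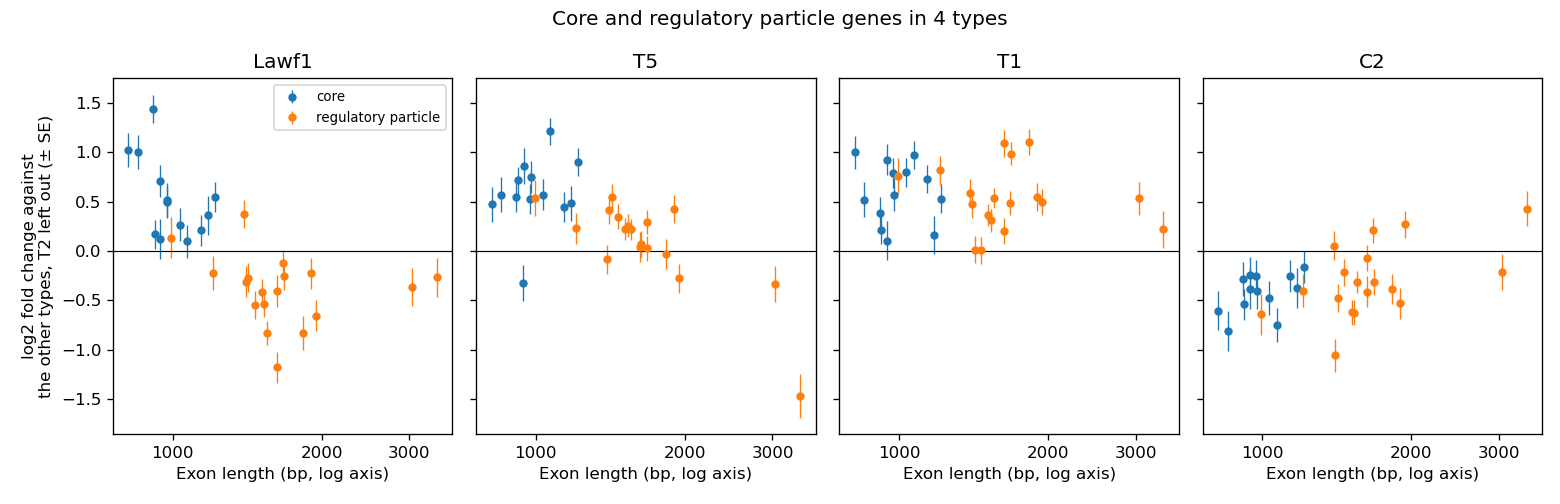
Log2 fold change (points, ± SE) of each of the 31 ubiquitous subunits against exon length in bp (log axis) in Lawf1, T5, T1 and C2, each against the mean of the other 15 types with T2 left out; core subunits are blue and regulatory subunits orange. In Lawf1 and T5 the core points lie mostly higher than the regulatory points, with overlap, and values fall with length over both classes together. In T1 both classes are above 0, and in C2 both are mostly below 0.

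The difference between the medians of core and regulatory subunits, taken without T2, was 0.83 in Lawf1 and 0.35 in T5. In the other 14 types it lay between -0.34, in Dm2 and Dm12, and 0.13, in Tm9. Core genes are the shorter class, with exon lengths of 815 to 1215 bp (median 973 bp) against 995 to 3412 bp (median 1589 bp). In Lawf1 the fold change fell with log2 exon length over the 31 subunits (r = -0.676) and to a lesser degree over all genes (-0.107). The trend over all genes was steepest among the short ones: their median was 1.31, 0.62, 0.09, -0.13 and 0.01 over the 5 length sets, beside 1.35, 0.57, -0.15 and 0.14 for the subunits in the first 4. Those 4 sets hold 2, 16, 11 and 2 subunits, so the first and the fourth value rest on 2 genes each. With the genome-wide length trend removed, 8 core subunits were higher and none lower, and 4 regulatory subunits were higher and 2 lower. The share of all genes called is again not given. The medians were then 0.47 and 0.03, beside 0.32 for all genes. Membership of the core and short exon length go together in this set, and their parts cannot be told apart.

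Of the 8 proteasome partners 2 were higher and 3 lower in Lawf1, and of the 5 regulators of proteasome genes 2 were higher and 2 lower, the latter being Keap1 (log2 fold change -0.83), a partner that restrains cnc, and Pngl (-0.65). Pomp, a chaperone that matures the core, had its highest mean there at 238 ± 36.4 CPM (log2 fold change 1.29), and Sem1, a small lid component outside the naming rule, reached 132 ± 9.01 CPM (2.98) against a median of 17.3 CPM over the types. The bZIP factor cnc, whose mammalian relatives activate proteasome genes, was higher (1.70), and its dimer partner maf-S was at its highest mean of 407 ± 34.5 CPM (2.49). The mean of cnc was highest in Lawf2, at 123 ± 6.66 CPM, a type where no core subunit was higher without T2. It was lowest in T5, at 9.41 ± 1.03 CPM. The part of cnc and maf-S in the subunits' levels was not tested. Among the lower partners REG, an alternative activator cap, had its lowest mean of 50.2 ± 13.5 CPM. Of the 15 ubiquitin genes 8 were higher and 4 lower, with the precursors Ubi-p5E at 554 ± 73 CPM and RpS27A at 324 ± 7.5 CPM at their highest. The glial list summed to 993 to 1.13e+03 CPM in the Lawf1 libraries, although repo, which defines glia, was at its lowest mean there (1.51 ± 0.653 CPM). Of the 5 photoreceptor markers 3 were higher, with a sum of 6.66 to 9.58 CPM. The part of either list in the subunits' levels was not tested.

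C2 was the lowest type after T2. With T2 in the mean, 5 subunits were lower and 2 higher, against 15% and 31.6% of all genes, and 16 were lower and 1 higher without it, against 17.2% and 30% of all genes. Scaling by DESeq2's size factors in place of TMM gave 1 lower and 4 higher with T2 in the mean. The median log2 fold change was then -0.05 for the subunits and 0.3 for all genes. Rpt6 was lower with T2 and without it, at 29.18, 36.01 and 28.16 CPM against a mean of 63.3 CPM (log2 fold change -0.81, adjusted p = 4.13e-05, edgeR's quasi-likelihood test; -1.06 without T2). Prosbeta1 had 23.64, 23.33 and 20.35 CPM (-0.55; -0.82 without T2) and Rpt1 had 43.22, 51.99 and 42.45 CPM (-0.36; -0.62). Rpn2 was higher, at 86.48, 75.56 and 70.23 CPM (0.78; 0.43 without T2). Of the partners 4 of 8 were lower and of the COP9 genes 4 of 8. All 4 neuron markers were lower in C2 (sum 3.12e+03 to 3.33e+03 CPM), and 4 of 7 glia markers were higher and 1 lower (sum 126 to 195 CPM), among them wrapper (1.93 CPM) and moody (18.8 CPM) at their highest means. The part of these markers in the subunits' levels was not tested. The count of 7 called subunits was 4 without C2 library 1 or library 3.

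The remaining types had few calls, and their number depended on T2 and on single libraries. Lawf2 had 4 higher and 3 lower subunits (28.6% and 13% of all genes), and 2 and 7 without T2 (27.1% and 15.7%). There Rpn11 stood at 62.76, 54.13 and 46.88 CPM (log2 fold change 0.87) and Rpt6 at 38.05, 27.98 and 45.25 CPM (-0.54). With DESeq2's size factors the split was 6 and 1 (median 0.196, and 0.161 for all genes), and without Lawf2 library 1 only 3 were called. In Dm12 7 were higher and 1 lower (19.5% and 11.6% of all genes), or 2 and 4 without T2 (19% and 12.9%), led by the ubiquitin receptor Rpn10 at 83.35, 99.16 and 96.45 CPM (0.70). Leaving out Dm12 library 2 or 3 left 4 or 3 calls. In Dm8 5 were higher and none lower (18.6% and 8.06% of all genes), or 1 higher and 2 lower without T2 (16.8% and 9.21%), and Rpn2 had its highest mean there with 82.35, 75.3 and 92.25 CPM (0.90). Without Dm8 library 1 there were 2 calls.

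Dm2 had 2 higher and 2 lower subunits (19% and 6.82% of all genes) and none higher and 6 lower without T2 (16.5% and 9.05%), among them Prosbeta3 at 39.62, 22.61 and 29.6 CPM (log2 fold change -0.51; -0.70 without T2) and Prosbeta6 at 23.87, 19.59 and 20.58 CPM (-0.53). Size factors split its calls into 1 and 2 (median -0.02, and 0.07 for all genes), and 2 calls were left without any 1 of its libraries. Mi1 had 5 higher and 2 lower (15% and 8.55% of all genes), and none higher and 3 lower without T2 (14.6% and 8.15%). With size factors it had 5 and 0 (median 0.125, and 0.1 for all genes). Its Rpn12 had 29.96, 21.18 and 29.91 CPM (0.74; 0.35 without T2), and between 0 and 4 calls were left without any 1 library. In C3 7 were higher and none lower (25.7% and 10.9% of all genes), 4 without C3 library 2, and none in either direction without T2 (22.9% and 13%). Rpn13 had 63.24, 66.3 and 79.86 CPM there (0.63). Tm5ab had 7 higher and none lower (21.9% and 7.04% of all genes), 3 without Tm5ab library 1, and 1 higher and 3 lower without T2 (19.5% and 9.67%). Its ATPase Rpt5 was at its highest mean, with 87.53, 75.33 and 77.46 CPM (0.78; 0.49 without T2).

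Tm2 had 4 higher and none lower (17.7% and 9.58% of all genes), 2 without library 2, and 1 higher and 1 lower without T2 (17.2% and 10.2%). Rpt1 in Tm2 had 83.29, 97.04 and 79.85 CPM (log2 fold change 0.62), and Prosbeta5 had 98.33, 169.4 and 100.6 CPM (0.52), where library 2 alone was high. Tm5c had 1 higher subunit and none lower (26.5% and 9.77% of all genes), Rpt4 at 82.22, 72.75 and 90.38 CPM (0.47). It had 2 calls without its library 1, and none higher and 6 lower without T2 (25.8% and 12.2%). In these 9 types the share of subunits higher with T2 left out was at or below 2 of 31.

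In sorted neurons 3 subunits were higher than the mean of the single types, where 15.6% of all genes were higher and 6.73% lower. These were Rpn12 at 25.19, 33.38 and 21.44 CPM (log2 fold change 0.68, adjusted p = 0.0261, edgeR's quasi-likelihood test), Rpn8 at 60.6, 67.92 and 59.93 CPM (0.39, adjusted p = 0.0149) and Rpt6 at 67.95, 77.62 and 62.42 CPM (0.39, adjusted p = 0.0399). Without T2 in the mean no subunit was higher and 1 was lower, against 16.6% and 6.95% of all genes. The count was 5, 1 and 6 without library 1, 2 or 3 of the neurons. Their Prosbeta1 libraries, at 37.22, 37.72 and 36.33 CPM, lay close to the median type mean of 36.1 CPM.

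The mixture of T1 and Tm1 was set against T1. In it 11 subunits were lower and none higher, with or without T2, where 12.6% of all genes were lower and 17.3% higher (12.7% and 17.6% without T2). The median log2 fold change was -0.49 for the subunits and 0.06 for all genes. The largest were Rpn3, at 54.1, 55.75 and 32.79 CPM against a mean of 102 CPM in T1 (-1.05, adjusted p = 5.16e-05, edgeR's quasi-likelihood test), and Rpn13, at 45.07, 31.44 and 33.76 CPM against 75.7 CPM (-1.01, adjusted p = 2.07e-05). For both genes every mixture library was below every T1 library, a separation whose share among all genes was not counted. Prosalpha6 (-0.88), Prosbeta2 (-0.88) and Rpt2 (-0.85) were lower too. Of the heat shock genes 5 of 8 were lower and 1 higher in the mixture, and 3 of 4 neuron markers were higher. Their part in the subunits' difference was not tested, and since the T1 libraries enter this comparison and the one above, the 2 are not independent.

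Of the 16 paralogues 9 had means below 1 CPM in every group. In each of the 15 pairs whose ubiquitous partner was read, the paralogue was lower per length than its partner (2-sided permutation test of paired log2(CPM per kb + 0.1) over the 17 types, Benjamini-Hochberg adjusted p = 4.57e-05, and 0.000299 for Rpn13R). The direction held in 17 of 17 types for 14 pairs and in 16 of 17 for Rpn13R. Averaged over types, 13 of the paralogues reached 0.6% of their partner's level per length or less. Prosalpha6T, whose product replaces Prosalpha6 in the testis proteasome and is needed for sperm formation, had 10 reads in all 57 libraries. Prosbeta4R1 had 46, Rpn12R 20 and Rpt4R 18, and these 4 did not pass the filter on low counts.

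**Figure D5:**
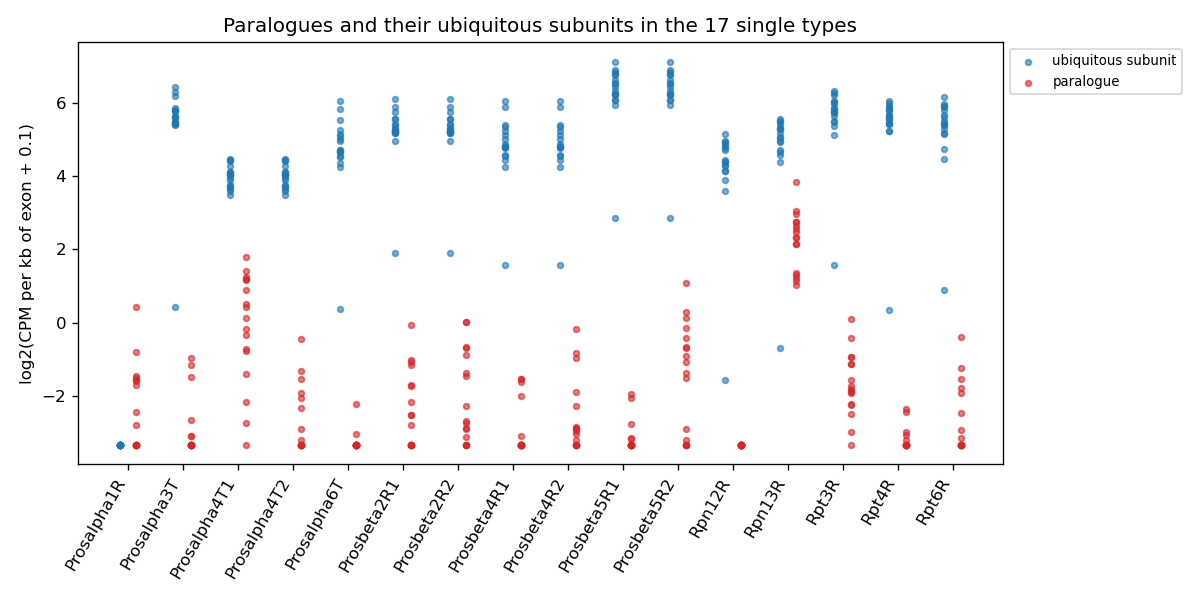
Level of each paralogue (red) and of its ubiquitous partner (blue) in the 17 single types, as log2(CPM per kb of exon + 0.1), 1 point per type from the mean CPM of its libraries, for 16 pairs. Red points gather at the lower limit for most pairs, Rpn13R and Prosalpha4T1 stand higher, and Prosalpha1 has its blue points at the limit.

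Rpn13R was the exception in level. The paralogue of the ubiquitin receptor Rpn13 was read in every group and averaged 16.3% of Rpn13 per length (14.8% without T2). Its highest level was in T5, at 17.17, 17.41 and 11.97 CPM against a mean of 5.18 CPM in the other types (log2 fold change 1.69, adjusted p = 7.35e-08, edgeR's quasi-likelihood test), and all 3 libraries were high. Its lowest was in Tm3, at 3.213, 0.6713 and 2.404 CPM (-1.33, adjusted p = 0.0132). It was also lower in C2, Dm8, Tm9 and in the mixture against T1. Against the other types Rpn13R was higher in T2 (adjusted p = 0.0237, edgeR's quasi-likelihood test). T2 was the type where the paralogue exceeded its partner: Rpn13R had 19.01, 7.927 and 0 CPM and Rpn13 a mean of 0.874 CPM. The 2 genes were not tested against each other within T2. The third T2 library, the shallowest, had no read of either.

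Prosalpha4T1, a paralogue of the alpha ring subunit Prosalpha4, averaged 7.6% of its partner per length. It was higher in Tm3, at 1.285, 4.475 and 3.236 CPM, in Tm2, at 4.379, 1.22 and 1.28 CPM, in Dm12, at 0.8786, 2.23 and 2.705 CPM, and in T1, at 3.657, 2.354 and 0.04352 CPM, where the libraries disagreed. Its mean in Tm3 was 17.4% and in Tm2 19% of Prosalpha4 per length. Of the further paralogues, 5 reached 1 CPM in some group. Prosbeta5R2 had 0.8728, 4.873 and 3.606 CPM in Lawf2, Rpt3R 1.216, 1.296 and 1.773 CPM in C2, and Prosalpha1R 1.153, 1.397 and 0.9864 CPM in Lawf1. Each could have passed the filter on low counts through the group named, so no p-value is given for them. Prosalpha1R was read in all 3 Lawf1 libraries while its partner was at 0, which is subject to the limit on near-identical copies given above. Prosbeta4R2 in Tm5c had 1.626, 0.4373 and 1.831 CPM, and Prosbeta2R2 had 0.5081, 0.8745 and 2.216 CPM there and 0.6744, 2.436 and 0.4837 CPM in Lawf2. Prosbeta5R2 in Lawf2, Prosbeta4R2 in Tm5c and Prosbeta2R2 spread several-fold between libraries, while the libraries of Rpt3R in C2 and Prosalpha1R in Lawf1 lay close together.

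Of the 12 paralogues tested 8 varied among the types, where 90.9% of all genes did. In C2, Lawf2 and Tm5c 6 each were higher, where 31.6%, 28.6% and 26.5% of all genes were higher. The low-count filter asks for enough reads in only 3 libraries, the size of a group. A paralogue near the floor could thus pass through the group where it was high, so both counts are tied to the filter. Summed over the 16 paralogues, the level ran from 4.71 ± 2.63 CPM in Mi1 to 16.9 ± 2.49 CPM in T5, and the T2 libraries spread over 22.5, 8.65 and 0 CPM. Of 10 matched testis germline markers most were at or near 0: bam did not exceed 0.0427 CPM in any type and dj not 0.674 CPM. The list's sum was 1.83 to 6.24 CPM in T1 and 17.2 to 22.3 CPM in Lawf2, led by betaTub85D, the testis tubulin, which reached 16.6 ± 2.89 CPM in C3, and can, at 12.5 ± 8.86 CPM in T2. The part of such transcripts in the paralogues' levels was not tested.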

How the data were processed

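RNA-seq was made from 19 groups of sorted Drosophila neurons, 3 libraries each. The deposited table holds the authors' raw read counts per gene, with no normalization. Reads were trimmed with Trimmomatic 0.32, aligned with STAR 2.5.2 to BDGP6 and counted with HTSeq 0.6.1, per the submitters' processing notes, and the strand setting is not given in the sources used here. The 5 summary lines of the counter, 56.4% to 64.5% of each library's total, were left out. Total gene counts of 602175 to 72677109 per library set the precision.

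Counts of all genes were fitted in edgeR 4.0.16 (R 4.3.3) by the quasi-likelihood method, with filterByExpr (12569 genes kept), TMM scaling and 1 coefficient per group over all 57 libraries. Each type was compared with the mean of the other 16, sorted neurons with the mean of the 17, and the mixture with T1. A call is a Benjamini-Hochberg adjusted p under 0.05 over all genes. The fit was checked on simulated counts. CPM are counts per 1000000 of the TMM-scaled library total. Exon lengths and symbols came from Ensembl release 115 annotation of BDGP6, matched for 17251 of 17558 gene IDs. Paralogues were tested against their partners with 100000 permutations in scipy 1.17.1, libraries of a type summed. Alternatives were DESeq2 1.42.0, its size factors, no filter, a replicate block, removal of the exon length trend, T2 left out, single libraries left out and a fold minimum.

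The members and gene lists were chosen with earlier results of these data known. Named with values were the catalytic subunits, the highest, lowest and most variable subunits of each role, up to 3 members of largest change in each comparison, paralogues reaching 1 CPM and the most variable genes of each other list. Further subunits and list genes were named after their values were seen. Some items within the lists are not reported here.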

Additional observations from a re-analysis of the deposited data

How the results depend on the processing

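All 31 tested subunits varied among the types under every alternative run, with any single library left out included. Leaving T2 out of the whole fit, filter and scaling included, changed these counts of called subunits by over 1.5 times: 17 in C2, 0 in C3, 3 in Dm8, 3 in Mi1, 8 in T3, 2 in Tm2, 4 in Tm5ab, 6 in Tm5c, 8 in Tm9 and 1 in sorted neurons. The part of each of these steps in the changes was not tested. A fold minimum of 1 on the log2 scale left 0 calls in C2, C3, Dm12, Dm2, Dm8, Lawf2, Mi1, T3, Tm2, Tm3, Tm5ab, Tm5c, Tm9 and sorted neurons. Of all genes, 11.5% (Tm3) to 28.7% (C2) passed it in these comparisons. It left 28 calls in T2, 8 in T1, 4 in T5, 3 in Lawf1 and 2 in the mixture. There 40.9%, 24%, 22.9%, 34.8% and 21.2% of all genes passed it, in that order. Dm8 had 3 calls without the low-count filter and 8 with the length trend removed. Tm5c had 2 calls with DESeq2's size factors and 2 with DESeq2. With those size factors the summed level was 1586 CPM in Lawf2 and 1928 CPM in T5. The cause of these moves was not tested. With single libraries left out, the calls ranged from 4 to 5 in C2, 4 to 5 in C3, 3 to 6 in Dm12, 2 to 2 in Dm2, 2 to 5 in Dm8, 3 to 6 in Lawf2, 0 to 4 in Mi1, 8 to 22 in T3, 2 to 4 in Tm2, 3 to 6 in Tm5ab, 1 to 2 in Tm5c, 9 to 25 in Tm9, and 1 to 6 in sorted neurons. They stayed at 24 to 26 in T1, 28 to 29 in T2, 20 to 23 in T5, 13 to 17 in Lawf1, 10 to 16 in Tm3 and 10 to 13 in the mixture. The sign of 2 paralogues turned: Prosbeta2R1 in Dm12 had a log2 fold change of -2.77 without library 1 and up to 4.09 without another, and Prosbeta4R2 in Lawf1 one of -2.73 without library 2 and up to 4.74 without another, each the sole library with reads. Library numbers did not pair the samples, since deviations of same-numbered libraries had a median correlation of -0.000342 over 513 pairs and 23 of 57 libraries correlated best with their own number. With the replicate block, 31 subunits varied, and the calls were 17 in T3, 21 in Tm9 and 2 in Tm5c. In T2, 66 to 912 reads over the subunits limit single genes. Of the members named in a comparison, 434 values kept their direction and side of the threshold, 74 lost the call and 2 turned.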
